A study of Rattus norvegicus with 10 samples.

Results

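Most of the genes described here encode nuclear subunits of respiratory complexes II to V. This part of the mitochondrial inner membrane carries electrons from succinate and ubiquinol to oxygen and makes ATP. Atp5if1 encodes an inhibitor of complex V and Cox7a2l a supercomplex factor related to complex IV. Both are counted here as subunit genes. Rows with subunit names that the rule on symbols missed are given at the end. Members were the rows of the deposited table whose symbol is Sdha to Sdhd, begins with Uqcr, is Cyc1, begins with Cox followed by a digit from 4 to 8, or begins with Atp5. The rule found 36 of 12555 genes: 4 of complex II, 8 of complex III, 10 of complex IV and 14 of complex V. All 36 passed the filter on low counts. RNA was sequenced in 10 wild-type (WT) rat libraries labelled liver and hepatocyte, 5 of a normal diet (normal 1 to 5) and 5 of a diet cut by 30% in calories throughout gestation (restricted 1 to 5). The title concerns infants born small for gestational age (SGA). The library names begin with AGA for normal and SGA for restricted, and SGA is a class of the newborn. These names point to offspring, but the labels do not otherwise state whether the liver is of the dam or the offspring. The source is labelled a hepatocyte cell line, although the design text has RNA isolated from liver tissues. The labels hold no age, sex, litter, feeding state or batch. They do not tie each library to a separate animal, so a p-value here speaks of the spread among libraries, which may be technical in part. Libraries of 1 group differed beyond counting noise, with a chi-square per degree of freedom of at least 21.1 in each of 20 pairs, and restricted 5 differed from restricted 1 to 4 in the Y-linked gene described below.

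Complex II, succinate dehydrogenase, belongs both to the citric acid cycle and to the respiratory chain and is encoded entirely in the nucleus. Complexes III, IV and V join nuclear subunits to a few that mitochondrial DNA encodes. Complex III hands electrons from ubiquinol to cytochrome c, complex IV passes them to oxygen, and complex V, ATP synthase, uses the resulting proton gradient. Hepatocytes are rich in mitochondria and use this chain to burn fatty acids and to power gluconeogenesis and urea synthesis.

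Total counts ran from 14936156 to 22104957 per library, and the lowest count of any member in any library was 171, for Atp5if1 in restricted 4. All 8 hepatocyte markers were in the table, with summed levels of 164623 to 195912 CPM (counts scaled to the library size) in the normal libraries and 147100 to 222588 in the restricted ones. Markers of other cells were present at lower summed levels. The 8 macrophage markers summed to 623 to 808 CPM in normal and 684 to 1667 CPM in restricted libraries, with the highest values in restricted 2 (1319) and restricted 5 (1667). The 2 erythroid markers found of 5 listed summed to 634 to 1025 and 482 to 2024 CPM, highest in restricted 2 and 3. The Y-linked gene Kdm5d had 280 to 392 counts in the normal libraries, 0 in restricted 1 to 4 and 309 in restricted 5, so Kdm5d, a sign of likely sex, runs with diet in 9 of 10 libraries. In bulk RNA, fewer cells of a type and less RNA per cell cannot be told apart.

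The subunit genes were abundant, and their levels per length spanned a wide range. In the normal group the median member had 57.0 FPKM (fragments scaled for gene length and depth), against 2.51 FPKM for the median of all 12555 genes. The highest was Atp5f1b, the catalytic beta subunit of ATP synthase, at 699 ± 38.1 FPKM (SD, n = 5), and the lowest was Uqcrb, a small ubiquinone-binding protein of complex III, at 11.1 ± 1.65 FPKM. Atp5f1b stood 4.07-fold above Atp5f1a, the alpha subunit with which it forms the head of the enzyme, at 172 ± 6.12 FPKM. Within complex III, Uqcrq, a small accessory subunit, reached 434 ± 11.1 FPKM, or 39.0-fold the level of Uqcrb. The 4 complex II genes lay close together, from 27.3 FPKM for Sdhc to 43.6 FPKM for Sdhd. Medians by complex were 34.9, 68.2, 53.3 and 72.7 FPKM for complexes II, III, IV and V. FPKM divides by the gene length the authors used, which the values imply to be 2765 bases for Uqcrb and 401 for Uqcrq, so a long annotated gene model lowers the value.

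**Figure D1:**
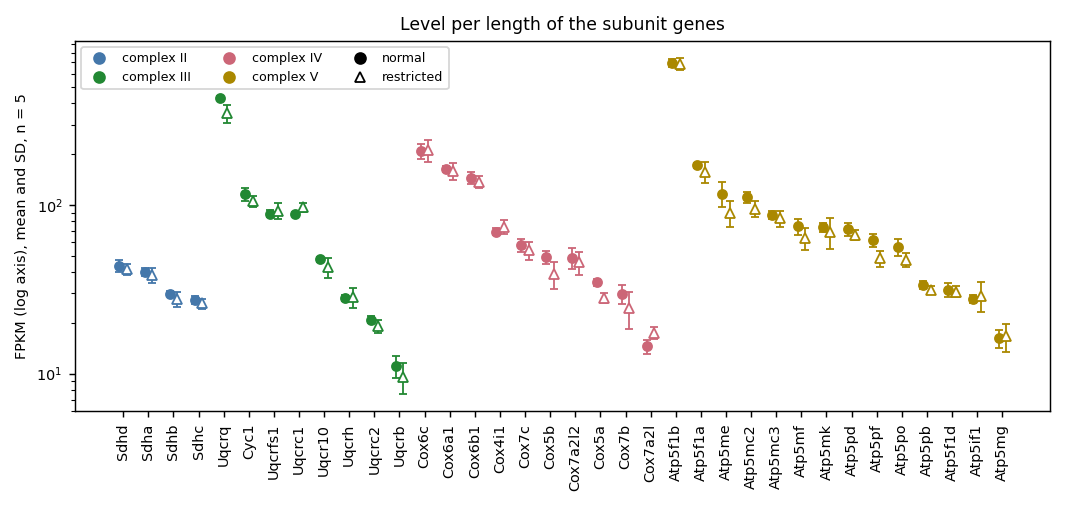
Mean FPKM with SD (n = 5 libraries per group, log axis) of the 36 genes, ordered within complexes II to V by the normal mean, with filled circles for normal and open triangles for restricted. Atp5f1b is highest at 699 FPKM and Uqcrb lowest at 11.1 FPKM in the normal group, and Uqcrq and Atp5f1b stand apart at the top of complexes III and V.

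The diets were compared to see how liver expression differs with calorie restriction in gestation. Most of the 36 subunit genes had log2 fold changes (restricted over normal) a little below 0, and few passed the test. Atp5pf, coupling factor 6 of the ATP synthase peripheral stalk, and Cox5a, a subunit of cytochrome c oxidase on the matrix side, fell by 0.38 and 0.33 on the log2 scale. They were the 2 members past an adjusted p of 0.05, or 5.56% of 36, where the background was 4.09% of 12367 genes (506), so the share called was near that of all genes. Both were lower (background 2.22%), and no member was called higher (background 1.87%). The median log2 fold change of the 36 was −0.11, against 0.012 over all genes tested, and 28 members (77.8%) were below 0, against 47.7% of all genes. The median was −0.067 without restricted 2, and its SD between restricted libraries, 0.149, was larger than the shift. At an unadjusted p of 0.05, 8 members passed (22.2%, background 20.1%), of which 7 were lower (19.4%, background 9.93%) and 1 was higher (2.78%, background 10.2%). With 1 library left out that count of 8 ran from 4, without normal 4, to 11, without restricted 4. Counts were tested with edgeR's quasi-likelihood method, and p-values were adjusted over the whole table by Benjamini-Hochberg.

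The number of members called depended on the settings. It was 3 with DESeq2 (Atp5pf, Cox5a and Uqcrq, background 8.48%), 2 with upper-quartile scaling (background 4.17%), with no filter (4.09%) or with a filter of at least 1 CPM in 5 libraries (4.2%), and 1, Atp5pf, with RLE scaling (4.06%) or limma-voom (3.64%). With 1 library left out, none was called without normal 1 to 5 (backgrounds 3.35%, 2.89%, 2.14%, 1.83% and 1.72%) or restricted 1, 2 or 3 (3.76%, 1.87% and 3.75%). Without restricted 4 there were 2, Cox5a and Uqcrq (background 2.43%), and without restricted 5 there was 1, Atp5pf (3.8%).

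Changes were small enough for the intervals to bound them. For all 36 members the 95% interval of the log2 fold change lay within −1 to 1, and for 27 it lay within −0.5 to 0.5. The largest fitted decrease was −0.40 for Atp5me and the largest increase 0.26 for Cox7a2l, and neither passed. By the authors' rule, an unadjusted p under 0.05 and a log2 fold change past 1 in size, 0 of the 36 counted as changed in the authors' deposited table. There, 3 members had an adjusted p below 0.05, where the background was 8.48% of 12555 genes, namely Cox5a at 0.00872, Atp5pf at 0.00939 and Uqcrq at 0.0411.

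**Figure D2:**
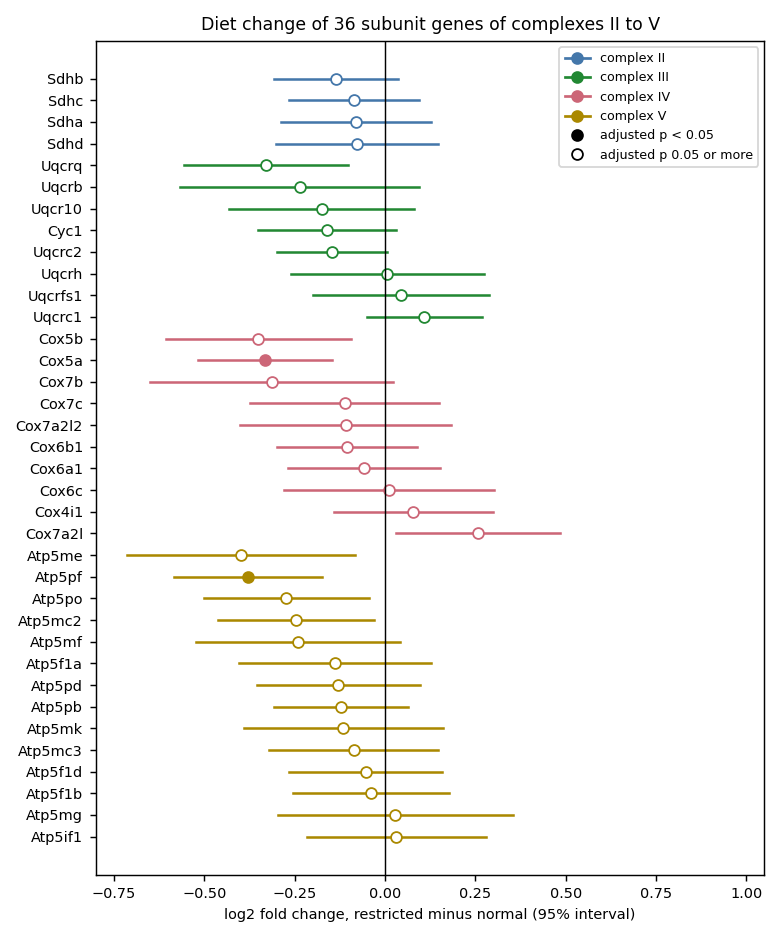
Fitted log2 fold change of restricted minus normal with its 95% interval for each of the 36 genes, coloured by complex, with filled points for an adjusted p below 0.05. Atp5pf (−0.38) and Cox5a (−0.33) are the filled points, and 28 of 36 points lie left of 0.

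Atp5pf links the stalk that holds the catalytic head still. It had 53.9, 63.0, 52.2, 60.0 and 52.3 CPM in normal 1 to 5 and 39.3, 39.5, 40.7, 48.6 and 48.4 CPM in restricted 1 to 5. Every restricted library lay below every normal one, and restricted 4 and 5 came nearest to the normal range. The mean fell from 56.3 ± 4.91 to 43.3 ± 4.76 CPM (SD, n = 5), a log2 fold change of −0.38 ± 0.095 (SE; adjusted p 0.0446 in edgeR). The call was narrow: with 1 library left out the gene passed without restricted 5 (adjusted p 0.0354) and missed the threshold without any of the other 9, at adjusted p of 0.0505 to 0.121.

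Cox5a had 65.9, 71.0, 66.6, 73.8 and 69.2 CPM in the normal libraries and 50.6, 48.2, 57.2, 61.6 and 57.8 CPM in the restricted ones. The groups did not overlap, and restricted 1 and 2 were lowest. The mean fell from 69.3 ± 3.25 to 55.1 ± 5.52 CPM (SD, n = 5; log2 fold change −0.33 ± 0.085, SE; adjusted p 0.0494 in edgeR). It passed without restricted 4 (0.0488) and missed the threshold without any of the other 9 libraries, at 0.0593 to 0.129. A further row of the table has no symbol and the name Cox5a-like (ENSRNOG00000022490), and the counting of reads shared by such copies is unknown. That row had 0 counts in normal 2, which allows up to 0.191 CPM, then 5.19 to 10.8 CPM in the other normal libraries and 7.88 to 11.3 CPM in the restricted ones. With both rows summed, an alternative chosen after seeing the data, the levels were 76.7, 71.0, 74.1, 81.0 and 74.3 CPM against 61.3, 56.1, 67.0, 71.1 and 69.1 CPM. Normal 2 and restricted 4 then overlapped, and the log2 fold change of −0.22 ± 0.085 (SE) did not pass (adjusted p 0.177 in edgeR).

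**Figure D3:**
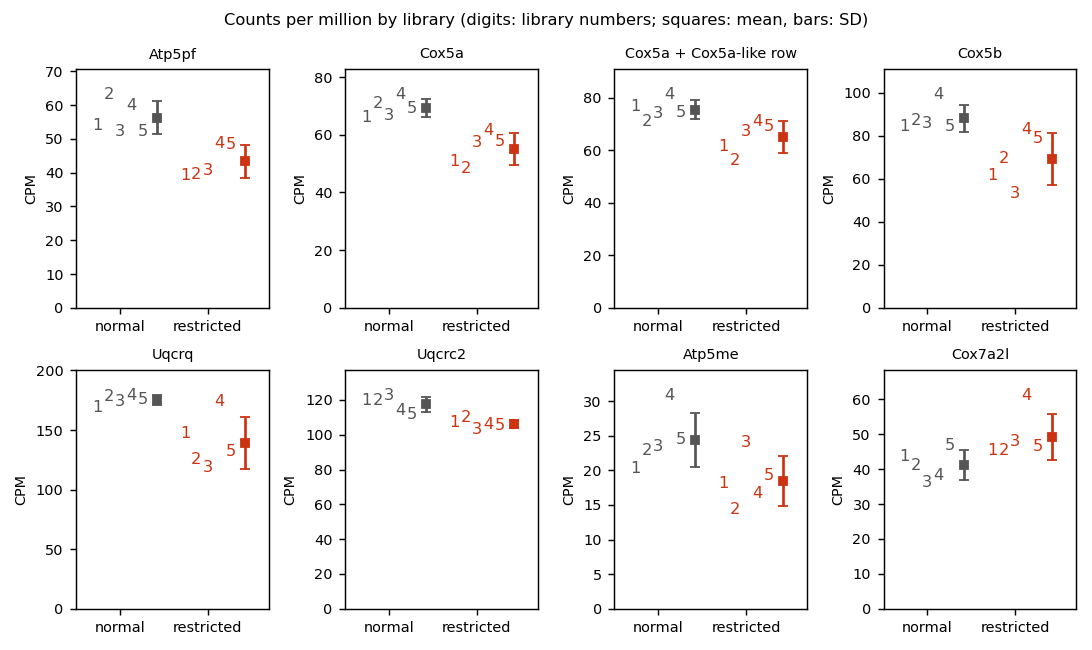
CPM of 7 members and of Cox5a summed with the Cox5a-like row, in normal and restricted libraries, with digits for the library number, squares for the mean and bars for the SD (n = 5). For Atp5pf and Cox5a all restricted libraries lie below all normal ones, whereas the summed Cox5a row has restricted 4 (71.1) above normal 2 (71.0).

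The same lack of overlap was seen for Cox5b and Uqcrc2, which did not pass the test. In all, 4 of 36 members (11.1%) had every restricted library below every normal one, where the background was 3.44% of genes, and none had the reverse (background 2.91%). Uqcrc2, a core protein of complex III, had 112 to 122 CPM in normal and 103 to 110 CPM in restricted libraries, a log2 fold change of −0.15 (adjusted p 0.267 in edgeR). Cox5b, a zinc-binding subunit of complex IV, had 84.3, 87.1, 85.5, 98.9 and 84.4 CPM in the normal libraries and 61.3, 69.5, 53.1, 82.9 and 78.6 CPM in the restricted ones. Its log2 fold change was −0.35 ± 0.12 (SE; adjusted p 0.12 in edgeR), and restricted 4 and 5 lay close to the normal range.

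The start regions of 4 members are shown to set side by side windows with and without motifs of factors known to drive respiratory genes in mammals. They are Atp5pf and Cox5a, which passed the test, and Cox7a2l and Uqcrc1, the members with the largest positive log2 fold changes. Each runs from 250 bases before to 50 bases after the gene start, is taken from RefSeq on build GRCr8, and has in capitals the matches to GCGC and GCGC with any 2 bases between them (NRF1), CGGAAG (ETS factors such as GABPA) and AAGATGGC (YY1), searched on both strands.
Atp5pf (GRCr8 chr11:37375052-37375351, minus strand): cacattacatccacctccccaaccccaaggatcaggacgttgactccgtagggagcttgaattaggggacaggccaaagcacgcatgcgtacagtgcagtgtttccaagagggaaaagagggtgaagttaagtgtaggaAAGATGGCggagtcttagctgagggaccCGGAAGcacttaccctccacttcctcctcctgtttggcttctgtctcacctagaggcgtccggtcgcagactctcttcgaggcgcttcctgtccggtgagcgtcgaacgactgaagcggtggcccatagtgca
Cox5a (GRCr8 chr8:66818034-66818333, plus strand): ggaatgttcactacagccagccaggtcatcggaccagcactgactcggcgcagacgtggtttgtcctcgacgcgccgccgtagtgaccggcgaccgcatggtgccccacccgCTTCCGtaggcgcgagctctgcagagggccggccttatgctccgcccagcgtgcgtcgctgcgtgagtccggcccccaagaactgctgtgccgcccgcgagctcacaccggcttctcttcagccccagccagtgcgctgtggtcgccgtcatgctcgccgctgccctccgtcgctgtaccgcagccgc
Cox7a2l (GRCr8 chr6:16936324-16936623, plus strand): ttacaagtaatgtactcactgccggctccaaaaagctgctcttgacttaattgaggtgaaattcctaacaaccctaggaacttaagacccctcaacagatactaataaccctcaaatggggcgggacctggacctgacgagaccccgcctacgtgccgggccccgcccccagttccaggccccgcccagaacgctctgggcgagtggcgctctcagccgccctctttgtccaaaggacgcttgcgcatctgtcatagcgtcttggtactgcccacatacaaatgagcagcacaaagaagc
Uqcrc1 (GRCr8 chr8:118467973-118468272, plus strand): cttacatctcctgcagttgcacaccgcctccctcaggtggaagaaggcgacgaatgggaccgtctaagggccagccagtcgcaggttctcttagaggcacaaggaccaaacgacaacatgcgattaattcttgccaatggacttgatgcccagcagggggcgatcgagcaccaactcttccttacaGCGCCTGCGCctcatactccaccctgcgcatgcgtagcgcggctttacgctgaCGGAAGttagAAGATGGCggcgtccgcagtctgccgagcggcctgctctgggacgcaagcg
Uqcrc1 held all 3 motifs, Atp5pf held the ETS and YY1 motifs, Cox5a held the ETS motif in reverse orientation, and the Cox7a2l window held none of these letters. No motif match overlapped another in these 4 windows. Of 36 members, 31 had an entry in the promoter table, and Atp5pd, Cox6a1, Cox6c, Cyc1 and Uqcrb had none. The ETS motif was in 20 of 31 member windows (64.5%), against 30.2% of the 10576 windows of genes in the test and 16.6% of all 33469 windows. The NRF1 and YY1 motifs were each in 6 of 31 (19.4%), against 12.3% and 5.17% of the windows of tested genes and 5.58% and 3.17% of all windows. A match is a description of the letters in the window, and the deposited data hold no binding measurement.

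In succinate dehydrogenase all 4 genes had log2 fold changes below 0, and none was called by edgeR or DESeq2 or had an unadjusted p below 0.05. The median was −0.083, and the values ran from −0.14 for Sdhb to −0.077 for Sdhd. Sdha, the flavoprotein that oxidises succinate, had 252 to 287 CPM in normal and 226 to 282 CPM in restricted libraries. Sdhb, the iron-sulfur subunit that passes the electrons on, had 110 to 120 and 93.4 to 114 CPM. Sdhc and Sdhd, which anchor the enzyme in the membrane, also overlapped between the groups, at 104 to 114 against 92.0 to 116 CPM and at 110 to 133 against 93.3 to 131 CPM.

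In complex III, the catalytic and core genes had a median log2 fold change of −0.051 and the small accessory genes one of −0.21. In edgeR 0 of 4 were called in each, and Uqcrq alone had an unadjusted p below 0.05. Uqcrq had 169, 178, 174, 179 and 176 CPM in the normal libraries and 147, 125, 119, 174 and 132 CPM in the restricted ones. Restricted 4 lay inside the narrow normal range and the other 4 lay below it. Its log2 fold change was −0.33 ± 0.10 (SE; adjusted p 0.102 in edgeR), and it passed without restricted 4 (0.0315). Uqcrc1, the other core protein, had 137 to 150 CPM in normal and 147 to 159 CPM in restricted libraries, with all 5 restricted values above the normal mean (log2 fold change 0.11, adjusted p 0.428 in edgeR). The electron-carrying subunits Cyc1, which holds the heme of cytochrome c1, and Uqcrfs1, the Rieske iron-sulfur protein, had log2 fold changes of −0.16 and 0.045, with 4 and 3 of 5 restricted libraries below the normal mean. Uqcrfs1 was spread widely in the restricted group, from 110 CPM in restricted 5 to 154 CPM in restricted 3. Of the remaining accessory genes, Uqcrb had a log2 fold change of −0.24, Uqcr10 one of −0.18 and the hinge protein Uqcrh one of 0.0068, with an interval of −0.26 to 0.27.

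Among the complex IV genes the median log2 fold change was −0.11, with Cox5a as the 1 of 10 called. Cox4i1, the ubiquitous isoform of the regulatory subunit that binds next to Cox5a, had a log2 fold change of 0.078, with 223 to 250 CPM in normal and 224 to 303 CPM in restricted libraries. Cox7b had 24.3 to 33.0 and 15.9 to 29.4 CPM, with a log2 fold change of −0.31 whose interval ran from −0.65 to 0.02. Cox6a1, Cox6b1, Cox6c and Cox7c, further nuclear subunits of the enzyme, had log2 fold changes between −0.11 and 0.010, and in each the groups overlapped. The symbol Cox7a2l2 is paired in the table with the name of subunit 7A2, and this row had a log2 fold change of −0.11. Cox7a2l, which joins complexes III and IV into supercomplexes and is matched by the rule on its symbol, went the other way. It had 43.7, 41.1, 36.1, 38.2 and 46.8 CPM in the normal libraries and 45.5, 45.4, 48.0, 61.0 and 46.5 CPM in the restricted ones. Restricted 4 was far above the rest, the groups overlapped through normal 5, and the log2 fold change of 0.26 ± 0.11 (SE) did not pass (adjusted p 0.192 in edgeR).

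In complex V, the median log2 fold changes by position in the enzyme were −0.053 for the 3 genes of the head and central stalk, −0.20 for the 4 peripheral stalk genes and −0.18 for the 6 membrane genes. The differences between these medians were not tested. Atp5f1b had 1216 to 1324 CPM in normal and 1121 to 1423 CPM in restricted libraries, a log2 fold change of −0.040 with an interval of −0.26 to 0.18. Atp5f1a had 770 to 806 and 585 to 890 CPM, so its restricted range enclosed the normal one. Atp5f1d, the delta subunit of the central stalk, had a log2 fold change of −0.053. In the peripheral stalk Atp5po, the oligomycin sensitivity protein at its top, had 107 to 134 CPM in normal and 80.9 to 112 CPM in restricted libraries, all 5 below the normal mean (log2 fold change −0.27, adjusted p 0.172 in edgeR). Atp5pb and Atp5pd, also of the stalk, had log2 fold changes of −0.12 and −0.13.

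The membrane genes of complex V ranged from −0.40 for Atp5me to 0.029 for Atp5mg. Atp5me, subunit e, had 20.2, 22.8, 23.4, 30.8 and 24.5 CPM in the normal libraries and 18.2, 14.3, 24.0, 16.7 and 19.3 CPM in the restricted ones. Only restricted 3 among the restricted libraries reached the normal range, and the change did not pass (adjusted p 0.149 in edgeR). Atp5mf and Atp5mk, other small membrane subunits, had log2 fold changes of −0.24 and −0.12. Atp5if1, the inhibitor that stops the enzyme from consuming ATP, had 12.9 to 14.5 CPM in normal and 11.2 to 16.3 CPM in restricted libraries, a log2 fold change of 0.032 with an interval of −0.22 to 0.28. Atp5mc2 and Atp5mc3 encode the same mature c subunit of the proton-driven ring. Atp5mc2 made up 56.0 ± 0.770% of their summed FPKM in the normal group and 53.3 ± 5.02% in the restricted group (SD, n = 5; two-sided exact permutation p 0.294, smallest possible 0.00794). In 4 of the restricted libraries the share was 52.6% to 57.4%, and in restricted 3 it was 45.1%. The difference was −2.66 percentage points with all libraries and −0.607 without restricted 3. This was the single share tested, since the other planned paralog pairs were not both in the table.

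The restricted libraries did not move together. Of the 36 members, 32 lay below the normal mean in restricted 1 and 33 in restricted 2, but 19 in restricted 3, 17 in restricted 4 and 24 in restricted 5. The median deviations from the normal mean were −0.26, −0.30, −0.015, 0.047 and −0.13 (log2), against −0.056 to 0.085 in the normal libraries. The members' levels also varied more between restricted libraries. The median coefficient of variation was 6.78% in the normal and 13.6% in the restricted group, against 10.4% and 13.3% for all 6003 genes above 4 log2 CPM. The members' restricted value was thus near that of all genes, and their normal value was below it. The restricted value was the larger for 34 of 36 members (94.4%), where the background was 67.8% of those 6003 genes. Complex III showed the widest gap, with medians of 4.85% and 16.3%. In restricted 3 members diverged. Cox7b and Cox5b, at 15.9 and 53.1 CPM, had their lowest level of all 10 libraries there, as did Uqcrb, Uqcrc2, Uqcrq and Atp5mc2. Atp5f1a, Atp5f1b and Cox4i1, at 890, 1423 and 303 CPM, had their highest there, as did Uqcrc1, Uqcrfs1 and Atp5mc3.

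**Figure D4:**
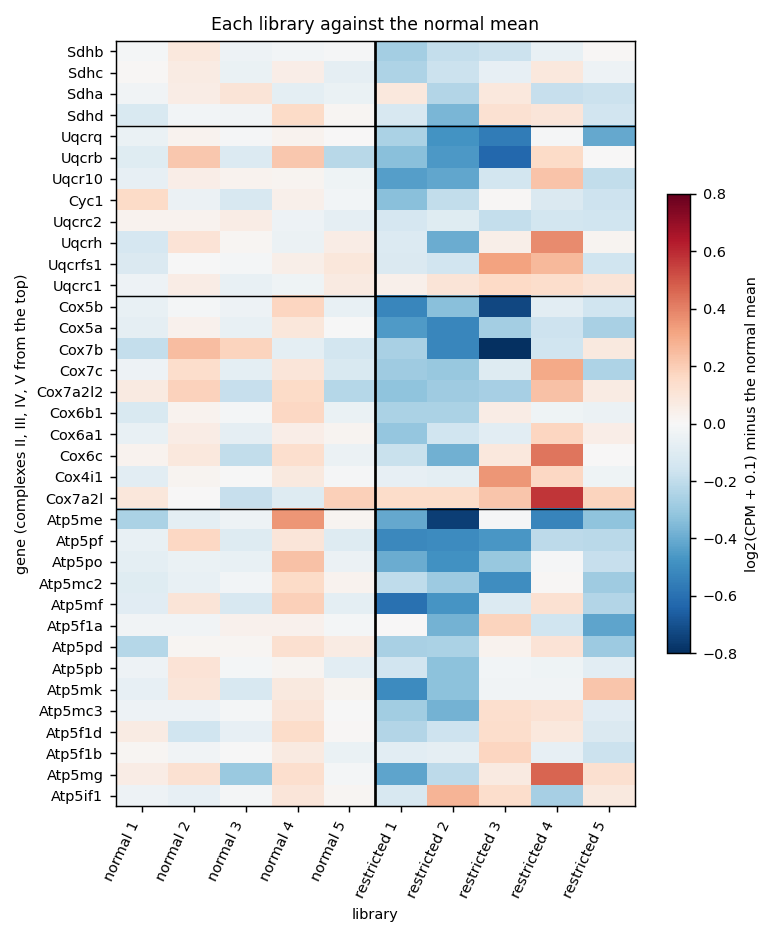
Deviation of log2(CPM + 0.1) from the normal mean for the 36 genes (rows, grouped by complexes II to V) in the 10 libraries (columns), blue for lower and red for higher. Restricted 1 and 2 are mostly blue, with 32 and 33 of 36 genes below the normal mean, restricted 4 has 17, and restricted 3 holds both dark blue and red cells.

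Other short genes deviated in a like way from library to library. The 123 other genes above 4 log2 CPM whose implied length was under 1000 bases had median deviations of −0.23, −0.23, −0.049, 0.093 and −0.13 in restricted 1 to 5. Their median log2 fold change was −0.074, against 0.0083 for 5845 longer genes. Among the members, the 11 under 1000 bases had a median of −0.12 and the 25 longer ones −0.11. The implied lengths are of gene models, such as 4814 bases for Atp5mg and 2765 for Uqcrb. They may exceed the transcripts, so this is not a split by transcript length. The 76 cytosolic ribosomal protein genes had deviations of −0.075, −0.18, −0.011, 0.19 and −0.20, with a median log2 fold change of −0.054. The 123 short genes were not cleared of ribosomal protein genes or of other mitochondrial genes, so these sets can share genes. No RNA quality value is at hand, and the part of transcript length or RNA quality in the members' changes was not tested.

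**Figure D5:**
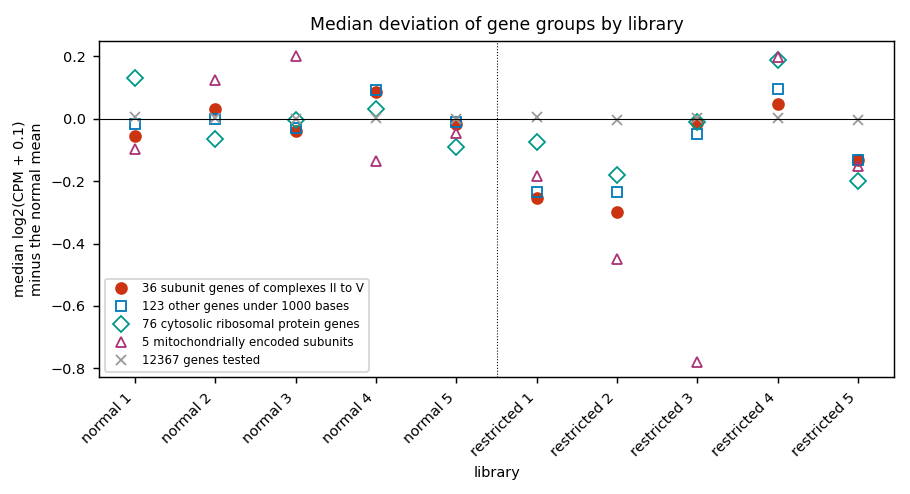
Median deviation of log2(CPM + 0.1) from the normal mean in each library for the 36 members, 123 other short genes, 76 cytosolic ribosomal protein genes, 5 mitochondrially encoded subunits and all 12367 genes tested. The members (filled circles) and the other short genes (squares) are lowest in restricted 1 and 2, at −0.26 and −0.30 for the members. The short and ribosomal sets can share genes.

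Kdm5d ran with diet in all libraries but restricted 5. Restricted 1 to 4, with 0 Kdm5d counts, had member medians of −0.26, −0.30, −0.015 and 0.047. Restricted 5, with 309 counts, had −0.13, and the normal libraries had −0.056 to 0.085. With log2 CPM of Kdm5d as a covariate 0 of 36 members were called, where the background was 0.978% of 12367 genes. Calls over all genes also fell, from 506 to 121. No member had an unadjusted p below 0.05, and the share of all genes at that threshold was not computed for this fit. Restricted 5 carries Kdm5d counts like the normal libraries, and set alone against these 5, again 0 of 36 were called (background 6.49%), and 2 had an unadjusted p below 0.05, Uqcrq at −0.41 and Atp5f1a at −0.42 (log2). The log2 fold changes of Atp5pf and Cox5a were −0.22 and −0.26 in restricted 5 and −0.20 and −0.26 with the covariate. The median over members was −0.14 in both fits. Both rest largely on restricted 5, so they are not separate results. The lone restricted 5 was assumed to vary like the normal libraries. With 1 restricted library of that kind, diet and likely sex cannot be told apart for the 2 genes called.

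Genes that build or control these complexes gave 2 further calls, both lower, among lists of 8, 18, 5, 18 and 20 tested genes. That share was below the background of 4.09% of 12367 genes. Tmem70, which assembles ATP synthase, had 40.0, 40.4, 38.4, 43.3 and 39.7 CPM in the normal libraries and 31.5, 32.7, 28.7, 34.4 and 30.5 CPM in the restricted ones. The groups were apart, and the mean fell from 40.4 ± 1.81 to 31.5 ± 2.17 CPM (SD, n = 5; log2 fold change −0.36 ± 0.077, SE; adjusted p 0.024 in edgeR). It missed the threshold without normal 4 (0.0749), normal 5 (0.0584) or restricted 2 (0.0508). Tfb1m, a methyltransferase that modifies mitochondrial ribosomal RNA, had 4.89 to 7.76 CPM in normal and 3.07 to 4.80 CPM in restricted libraries and fell by 0.70 on the log2 scale (adjusted p 0.0438 in edgeR). It passed without normal 4 (0.05) or restricted 5 (0.0369) and missed the threshold without any of the other 8 libraries, up to 0.11. With Kdm5d as a covariate neither passed (adjusted p 0.164 for Tmem70 and 0.513 for Tfb1m in edgeR). The log2 fold change of Tmem70 was then −0.41, and it was −0.41 in restricted 5 alone against the normal libraries. That of Tfb1m was −0.42 and −0.43 in these fits. Both fits rest largely on restricted 5, so they are not separate results. Diet and likely sex cannot be told apart for Tmem70 and Tfb1m either.

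The other listed genes of the pathway did not pass in edgeR. For the counts at an unadjusted p below 0.05 given here, the background was 20.1% of all genes tested. Of 5 complex V assembly factors tested, 1 was called, Tmem70, and the median log2 fold change was −0.16. Of the 8 tested assembly factors of complexes II and III, edgeR called 0 and 1 had an unadjusted p below 0.05 (median −0.16). It was Uqcc3, of complex III, at a log2 fold change of −0.34 (adjusted p 0.175 in edgeR). Of the 18 tested assembly factors of complex IV, edgeR called 0 and 3 had an unadjusted p below 0.05 (median −0.016). Among these Pet100, a factor known from assembly of the enzyme, stood at −0.56 on the log2 scale (adjusted p 0.0813), and Sco2, a copper chaperone, had low levels of 2.16 ± 0.871 and 0.623 ± 0.463 CPM (SD, n = 5; adjusted p 0.106 in edgeR). Cox19, a copper-handling factor of the same list, went the other way, with 16.5 to 18.3 CPM in normal and 18.4 to 22.1 CPM in restricted libraries. Every restricted library lay above every normal one (background 2.91%), and its log2 fold change of 0.24 did not pass (adjusted p 0.154 in edgeR). Of 18 electron carrier and coenzyme Q genes edgeR called 0, and 5 had an unadjusted p below 0.05 (median −0.087). Of these, 4 were lower (background 9.93%) and 1 was higher (background 10.2%). Coq6, of coenzyme Q synthesis, came nearest at −0.42 (adjusted p 0.0523 in edgeR). For Coq6, Coq9 of the same list, Uqcc3 and Pet100, every restricted library lay below every normal one, as for Tmem70 and Tfb1m. These were the only such genes in the lists of 8, 18, 5, 18 and 20 tested genes, where the background was 3.44%. Among the pathway genes named by rule, DESeq2 also called Pet100, Sco2, Coq6 and Coq9, all lower, and Ppara, which was higher (background 8.48%).

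Regulators of respiratory genes had 1 of 20 called, Tfb1m, with a median of 0.027. At an unadjusted p below 0.05, 4 were higher (background 10.2%) and 2, Tfb1m included, were lower (background 9.93%). Ppargc1a, the coactivator of mitochondrial biogenesis, had 3.88 to 14.3 CPM in normal and 5.98 to 11.6 CPM in restricted libraries (adjusted p 0.601 in edgeR). Tfam, which packages mitochondrial DNA, had 27.0 ± 2.86 and 31.5 ± 3.61 CPM (SD, n = 5; adjusted p 0.257 in edgeR). Nrf1, Gabpa and Yy1, whose motifs were searched above, had log2 fold changes of 0.18, −0.038 and 0.29 (adjusted p 0.487, 0.877 and 0.167 in edgeR). Yy1 had 32.8 to 40.4 CPM in normal and 39.2 to 56.0 CPM in restricted libraries, all 5 above the normal mean. Ppargc1b, a coactivator related to Ppargc1a, had 1.89 to 6.30 CPM and 5.70 to 10.6 CPM, also all 5 above the normal mean (log2 fold change 0.87, adjusted p 0.122 in edgeR). These 6 were named after their values were seen. So was Esrrg, the other regulator that was lower at an unadjusted p below 0.05. It had 5.60 to 10.3 CPM in normal and 3.45 to 7.44 CPM in restricted libraries, all 5 below the normal mean (log2 fold change −0.62, adjusted p 0.149 in edgeR). Ppara, a receptor for fatty acids, had 27.3 to 70.4 CPM in normal and 63.3 to 69.8 CPM in restricted libraries (adjusted p 0.114 in edgeR; called with DESeq2 and without normal 2). Polg, which copies mitochondrial DNA, stood at 0.35 on the log2 scale (adjusted p 0.116 in edgeR).

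The mitochondrially encoded subunits of complexes III to V gave 0 of 5 calls in edgeR and 1 unadjusted p below 0.05 (background 20.1%). All 5 were below 0 (background 47.7%), with a median of −0.21. Mt-cyb, the cytochrome b of complex III, had 5683 ± 504 and 4191 ± 1142 CPM (SD, n = 5; log2 fold change −0.44, adjusted p 0.185 in edgeR). Their median deviation was lowest in restricted 3, at −0.78, where that of the nuclear members was −0.015, and highest of the restricted libraries in restricted 4, at 0.20.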

How the data were processed

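RNA sequencing of 10 rat liver libraries was analysed from 1 deposited table of 12555 genes with 1 column per library and unit; replicates were not pooled. Per the labels' protocols, TRIpure reagent served for extraction and an NEBNext Ultra kit for library preparation. Per the submitters' processing notes the tools were bcl2fastq, fastp and HTSeq with build rn7, and the series' design text adds a Q30 filter and HISAT2. Their versions, the annotation and the strand setting: not given in the sources used here. Deposited raw counts are whole reads per gene, unscaled. The deposited FPKM values are scaled by the authors for length and depth, per the file headers. The authors' comparison columns hold a fold change, a ratio with restricted on top. The authors deposited its log2 as well. The authors also deposited a p-value and an adjusted p-value per gene, from an unnamed test.

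Counts went into edgeR 4.0.16 (R 4.3.3; filterByExpr with a minimum count of 10, 12367 genes kept and 188 removed; TMM scaling; robust quasi-likelihood test, two-sided, Benjamini-Hochberg adjustment over all genes tested; called below 0.05). CPM uses TMM-adjusted library sizes, and deviations are of log2(CPM + 0.1). Gene lengths are those implied by counts and FPKM. The fit was tested on simulated data. Within a group, the smallest chi-square per degree of freedom over 20 library pairs was 21.1. For 0 counts the floor was 3 counts per library, which covers counting error only. Members and lists were chosen with earlier results of these data known; motifs, length classes and summed rows were chosen after seeing the data. The text may name every member and, of each pathway list, each gene past the threshold and up to 3 with the smallest p. The regulators named after their values were seen go beyond this rule. Other settings tried were DESeq2 1.42.0, limma-voom (limma 3.58.1), upper-quartile or RLE scaling, no filter, a filter of at least 1 CPM in 5 libraries, a block for the replicate number, Kdm5d as a covariate, restricted 5 alone against the normal libraries, and each library left out. Promoters are RefSeq sequences of build GRCr8, matched by symbol; the deposited table holds no coordinates.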

Additional observations from a re-analysis of the deposited data

Results flagged for a closer look

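In 72 checks, of 36 genes in 2 groups of 5 libraries, 7 had 1 library far from the others, where chance gives about 1 in 20. Normal 4 was the far library for Cox5b (98.9 CPM), Atp5mc3 (177 CPM) and Atp5po (134 CPM), each time as the highest of the normal libraries. Normal 2 was highest for Sdhb (120 CPM). Restricted 4 was highest for Cox7a2l (61.0 CPM) and Cox7c (98.7 CPM), and restricted 3 for Atp5f1b (1423 CPM).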

How the results depend on the processing

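Of 36 members 2 were called with all libraries, 1 with RLE scaling, 1 with limma-voom, 0 with the replicate block (background 2.14%), 0 with Kdm5d as a covariate, and 0 to 2 with 1 library left out. Genes called numbered 506, 1049 with DESeq2, 265 with the replicate block, 121 with Kdm5d as a covariate, 802 in restricted 5 alone, and 213 to 470 with 1 library left out (265, 226 and 213 without normal 3, 4 and 5, 231 and 301 without restricted 2 and 4). The cause was not tested. The labels do not state whether the replicate numbers pair the libraries. Correlations of same-number deviations ran from −0.185 to 0.121, and 4 of 10 libraries correlated best with their own number. With 5 libraries per group these correlations cannot decide whether the libraries are paired. With the block the adjusted p of Atp5pf and Cox5a were 0.0957 and 0.1. The member median stayed between −0.14 and −0.067 with 1 library left out. The difference in the Atp5mc2 share was −3.68 to −0.607 percentage points with 1 library left out. Over 686 member values under alternatives, 621 kept their direction and side of the threshold, 27 no longer passed, 2 newly passed (Uqcrq, with DESeq2 and without restricted 4) and 36 changed sign, none of them a called gene. With Kdm5d as a covariate the new log2 fold changes were 0.015 for Sdhb, 0.014 for Uqcrb, −0.17 for Uqcrfs1, −0.034 for Cox4i1, 0.058 for Cox6a1, −0.0027 for Cox6c, 0.070 for Cox7a2l2, 0.10 for Cox7b and 0.24 for Atp5mk. In restricted 5 against the normal libraries they were 0.0085 for Sdhb, −0.16 for Uqcrfs1, −0.033 for Cox4i1, 0.053 for Cox6a1, −0.0017 for Cox6c, 0.056 for Cox7a2l2, 0.068 for Cox7b and 0.22 for Atp5mk. They were, with upper-quartile scaling, −0.016 for Uqcrh and −0.012 for Cox6c, with limma-voom −0.013 for Uqcrh and −0.00892 for Cox6c, and with the replicate block −0.011 for Uqcrh and −0.010 for Cox6c. With 1 library left out the sign changed within the ranges of Uqcrfs1 (−0.034 to 0.091), Uqcrh (−0.090 to 0.093), Cox4i1 (−0.00021 to 0.11), Cox6c (−0.10 to 0.095), Atp5if1 (−0.037 to 0.11) and Atp5mg (−0.087 to 0.12). The lowest count of a member in a library was 171.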

Other observations

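Rows outside the symbol rule carry subunit names. A row with the symbol Taf3 has the name of the ATP synthase F1 gamma subunit, so it is uncertain which gene it counts; it had 168 to 190 CPM in normal and 147 to 188 CPM in restricted libraries (log2 fold change −0.15, adjusted p 0.364 in edgeR). A row named ATP5MPL had 4.45 to 7.89 CPM and 4.32 to 7.28 CPM (adjusted p 0.489). A row named cytochrome c oxidase VIIa polypeptide 2-like 2 had 2.43 to 3.48 CPM and 2.94 to 5.67 CPM (adjusted p 0.257), and summed with Cox7a2l2 it gave a log2 fold change of −0.018 against −0.11 without it (adjusted p 0.959 and 0.694).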
